A study of Mus musculus with 8 samples.

Results

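The 9 genes described here encode the mouse Notch receptors, Notch1, Notch2, Notch3 and Notch4, and their ligands, Dll1, Dll3, Dll4, Jag1 and Jag2. They were chosen by name, and all 9 were found among the 21631 protein-coding genes on chromosomes 1 to 19 and X of the gene table. The locus of a gene was its span on GRCm38 plus 10 kb on either side, and the measurement was how much of that locus lay under peaks of H3K4me, methylation of histone H3 at lysine 4.

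Notch signalling passes between touching cells. A ligand on one cell binds a receptor on its neighbour, the receptor is cut, and its intracellular part enters the nucleus, joins the DNA-binding protein RBPJ and switches on repressors of the HES and HEY families. In the embryonic cortex this keeps radial glia, the neural stem cells, from turning into neurons, and newborn neurons and intermediate progenitors present the ligands. The same receptors and ligands also act in blood vessels. The labels do not say how many methyl groups are meant. The abcam antibody they name is sold against the monomethylated form, which marks enhancers and the flanks of active promoters.

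Chromatin came from whole cortex lysates of mouse embryos at E15.5, in mid to late neurogenesis. The WT group carried 2 floxed alleles of Prdm16 (Prdm16 flox/flox) and no Cre, and the cKO group carried the same alleles with Emx1Ires-Cre. Prdm16 encodes a zinc-finger transcriptional regulator of radial glia. Emx1-driven Cre is active in progenitors of the dorsal telencephalon and the cells they give rise to, so vessel cells, microglia and interneurons of the lysate keep their floxed alleles. In a lysate, a change in the number of cells that carry the mark and a change within those cells cannot be told apart. There were 2 ChIP libraries per genotype, and the labels do not say whether they came from separate embryos, so the p-values measure the spread between these libraries only. The 4 input libraries were not analysed here, and the read depth is unknown. Peak lists do not show whether Prdm16 was deleted, so the genotypes are taken from the labels.

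The lists held between 66476 and 82683 peaks. Peaks covered 130 and 114 Mb in the WT libraries and 148 and 166 Mb in the cKO libraries, with replicate 1 given first here and throughout. The cKO mean was 1.29 times the WT mean (two-sided exact permutation p = 0.33, the smallest possible with 2 against 2). WT replicate 2 stood apart by its weaker peaks, with a median deposited −log10 q of 2.98, where the other 3 lists had 3.71 to 4.14. Among marker genes, all 10 for cortical progenitors and all 8 for cortical neurons had peaks in all 4 libraries, with a median of 59.0% ± 1.68 and 50.3% ± 6.23 of the locus covered (SD, n = 4 libraries). The median was 6.18% ± 1.76 for 14 vessel markers, 4.14% ± 0.524 for 6 microglia markers and 0.829% ± 0.474 for 6 erythroid markers, compared with 5.70% ± 1.32 for all coding loci. Of these, Tie1, Trem2, Hbb-bs, Hbb-bt and Alas2 had no peak in any library.

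All 9 Notch receptor and ligand loci held peaks in all 4 libraries, as did 70.3% of all coding loci. Notch1 was the most covered of the 9, and Jag2 the least. In Notch1, the main receptor of cortical radial glia, peaks lay over 53.6% ± 4.03 of the locus (SD, n = 4 libraries), above 99.3% of coding loci. Dll1, the ligand presented by newborn neurons, followed with 39.7% ± 5.86, and Notch2, a second receptor of radial glia, with 39.0% ± 1.30. Jag1 (31.5% ± 8.90), Dll4 (30.3% ± 2.11) and Dll3 (28.6% ± 4.02) formed a middle group. Notch4, best known from endothelial cells, had 17.3% ± 6.90 covered and Notch3, a receptor of radial glia and of the mural cells of vessels, had 15.2% ± 1.46. Jag2, a Jagged ligand, had 6.38% ± 3.05, above 52.5% of coding loci. In this order, the ranges over the 4 libraries separated Notch1 from Dll1 and Notch3 from Jag2. The ranges of all other neighbours overlapped.

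**Figure D1:**
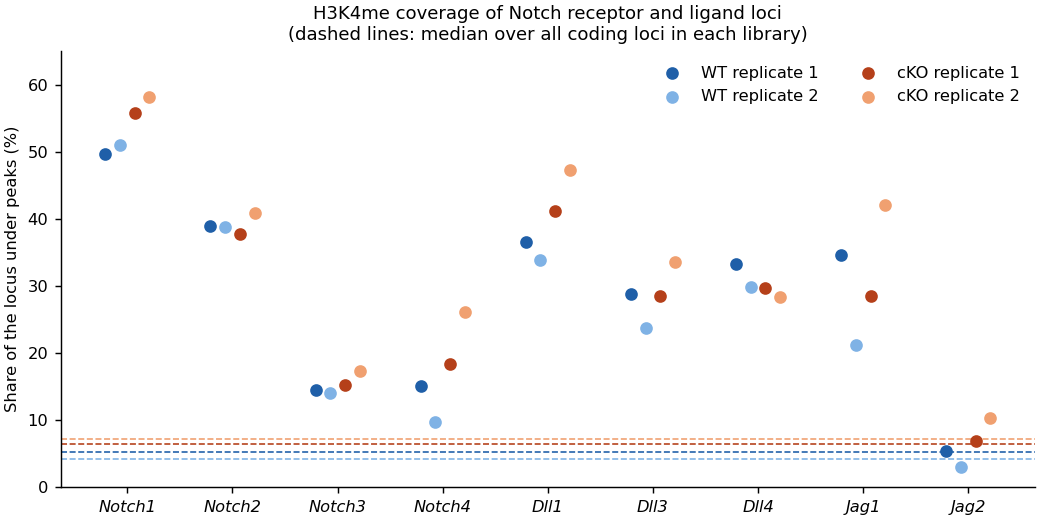
Share of each locus (gene plus 10 kb on either side) under H3K4me peaks, in percent, for the 9 genes. Each point is 1 library, and the dashed lines give the median over all coding loci in each library (4.14% to 7.14%). Notch1 lies between 49.6% and 58.2%, and Jag2 between 3.04% and 10.3%.

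The receptors differed in where the mark lay. In Notch1 (chromosome 2, 26457902 to 26503822, minus strand) peaks covered 32.7 and 33.6 kb of the 65.9 kb locus in WT, against 36.8 and 38.4 kb in cKO. Most of this was 1 block that began upstream of the gene start and ran 21.4 to 22.4 kb into the gene. The block was 22.6 and 23.9 kb wide in WT, against 22.8 and 26.7 kb in cKO, wider than 99.9% of the peaks of each list. Its fold enrichment, the authors' value for the peak, was 7.21 and 5.08 in WT, against 6.64 and 6.51 in cKO. A second cluster lay 23 to 33 kb downstream of the start. It was called as 3 separate peaks in each WT library, and as a single peak of 9.53 and 9.76 kb in the cKO libraries. In cKO replicate 2 the upstream peak was also joined to the main block, so the number of peaks in the locus was 7 and 7 in WT, against 5 and 4 in cKO while the covered bases were higher in cKO.

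Notch2 (chromosome 3, 98013538 to 98150367, plus strand) carried the widest peaks of the 9 loci. A block over the first part of the gene was 33.2 and 34.8 kb wide in WT, against 33.0 and 34.96 kb in cKO, and ended 34.02 to 34.3 kb from the start in each library. The strongest peaks lay deeper in the gene. One stretched from 45.7 to 54.9 kb downstream of the start in WT replicate 1 (98059249 to 98068442) and had a fold enrichment of 7.40 and 5.56 in WT, against 7.02 and 8.09 in cKO. The other, at 90.7 to 94.2 kb (98104218 to 98107715 in WT replicate 1), had 7.35 and 6.10 in WT, against 6.65 and 8.32 in cKO. Both ranked above at least 97.4% of the peaks of their own list by fold enrichment. The gene table gives no exons, so peaks were not assigned to exons or introns. The whole locus of 157 kb held 61.0 and 60.7 kb under peaks in WT, against 59.1 and 63.97 kb in cKO.

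Notch3 (chromosome 17, 32120820 to 32166896, minus strand) had 9.58 and 9.24 kb covered in WT, against 10.02 and 11.4 kb in cKO. A block from the start to 4.35 to 4.88 kb downstream was its widest peak, and a second one of 1.82 to 2.92 kb lay just past the end of the gene. The fold enrichment of the block at the start was moderate, 3.76 and 3.50 in WT, against 3.86 and 4.20 in cKO. Notch4 (chromosome 17, 34564286 to 34588543, plus strand) showed another layout. No library had a peak in the first 21.0 kb of the gene. Peaks began 21.0 to 21.4 kb from the start, near the end of the gene, and ran into the neighbouring genes Gpsm3 and Pbx2. The gene itself held 1.66 and 1.30 kb under peaks in WT, against 3.12 and 3.24 kb in cKO, and the neighbours held 4.20 and 2.75 kb in WT, against 4.19 and 6.56 kb in cKO. The value of the Notch4 locus was therefore mostly that of its neighbours and of the end of the gene. The separate peaks seen in WT were joined into a single peak of 11.6 kb in cKO replicate 2.

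Among the ligands, Dll1 (chromosome 17, 15367354 to 15376932, minus strand) carried a pair of blocks with a gap between them. The upstream block was 6.12 and 5.48 kb wide in WT, against 6.15 and 6.26 kb in cKO. It ended within 0.3 kb of the most upstream start of the gene in every library. The second block began 1.91 to 2.37 kb downstream of the start. Fold enrichment of the upstream block was 5.74 and 4.79 in WT, against 7.03 and 5.77 in cKO. A small peak past the end of the gene, 13.2 to 13.97 kb from the start, was in both cKO lists and in no WT list, but the bases common to the cKO lists fell short of 200 bp. Dll4, a ligand known from the tip cells of growing vessels (chromosome 2, 119325784 to 119335666, plus strand), had a single block across its start. It was 8.71 and 8.93 kb wide in WT, against 8.22 and 7.84 kb in cKO. A small peak past the end of the gene, 11.5 kb from the start, was called in all libraries except WT replicate 2.

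Dll3, a divergent ligand that blocks Notch signalling within its own cell (chromosome 7, 28293555 to 28301785, minus strand), also had a block across its start, 4.80 and 4.26 kb wide in WT, against 4.63 and 4.89 kb in cKO. Its other peaks fell mostly on the neighbours Timm50 and Selenov. Jag1, a ligand of progenitors and of vessels (chromosome 2, 137081451 to 137116520, minus strand), varied most of the 9 between replicates, in percentage points of the locus. It had 19.0 and 11.6 kb covered in WT, against 15.6 and 23.1 kb in cKO, so the genotypes overlapped. The block at its start spanned 10.5 kb in WT replicate 1 and 10.1 kb in cKO replicate 2, and was split in the other 2 libraries, with 2.204 kb as the part nearest the start in WT replicate 2. A peak 22.5 to 24.6 kb from the start in WT replicate 2 had an overlapping partner in each of the other 3 libraries, and the fold enrichment was 4.98 and 4.50 in WT, against 5.43 and 5.10 in cKO. Jag2 (chromosome 12, 112907803 to 112929812, minus strand) had 2.24 and 1.28 kb covered in WT, against 2.88 and 4.33 kb in cKO. The only stretch covered in all 4 libraries was 0.284 kb long, a short way downstream of the start. Its widest cKO peaks, 4.29 and 4.53 kb, lay upstream and touched Nudt14. The bases on Nudt14 within the locus came to 1.21 and 0 kb in WT, against 1.63 and 1.71 kb in cKO.

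**Figure D2:**
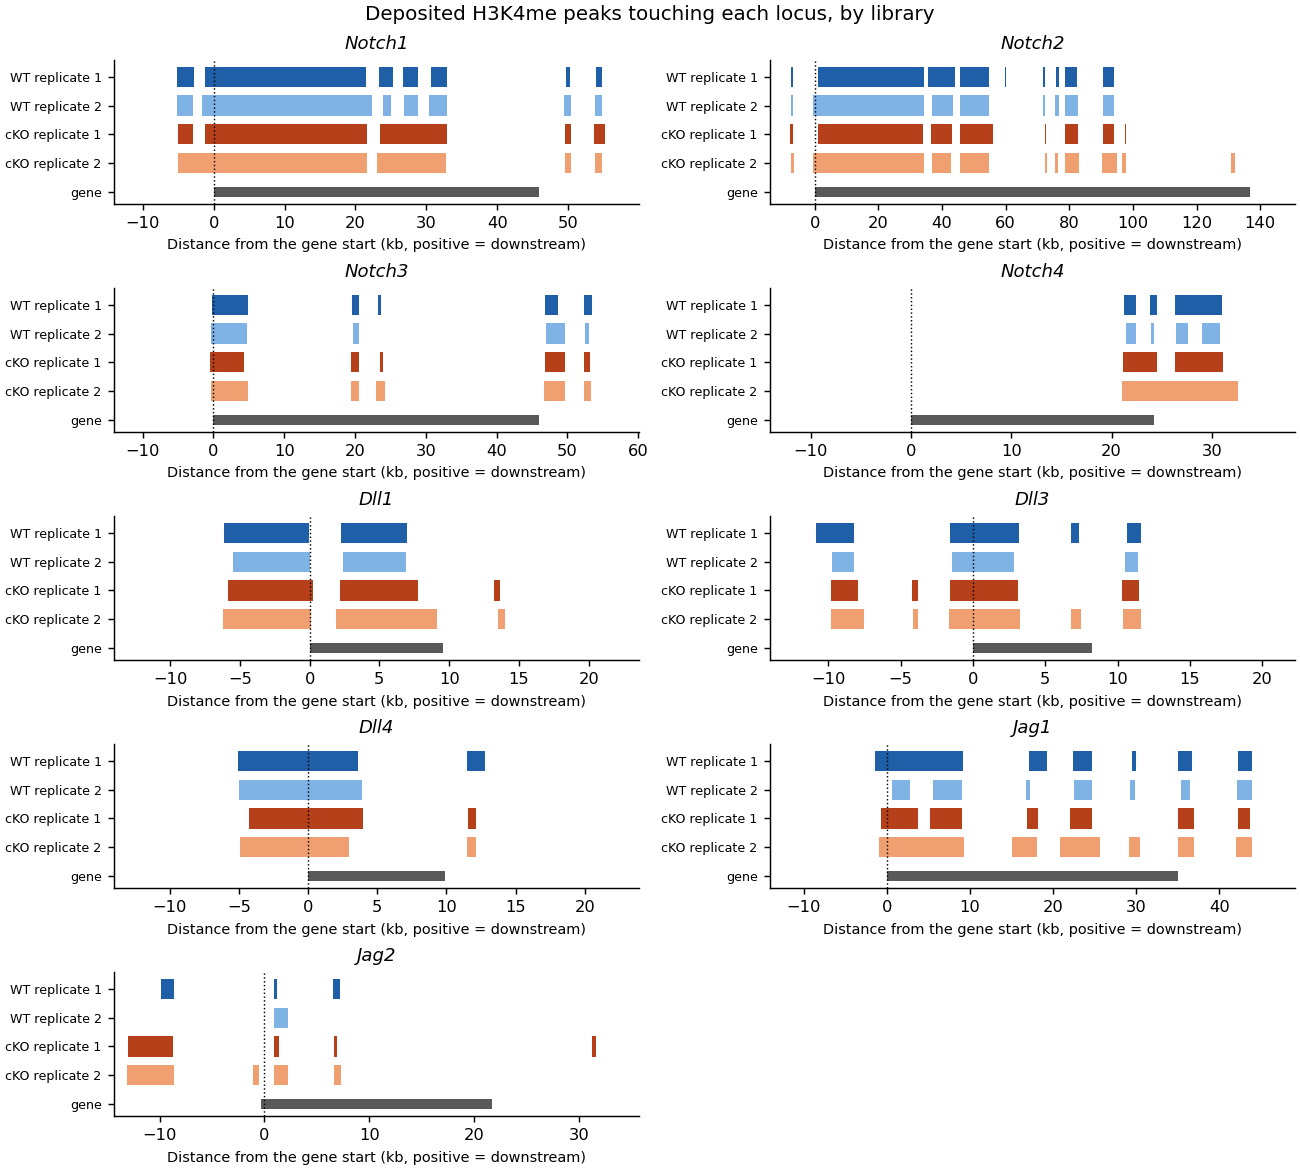
Deposited peaks (bars) that touch each of the 9 loci, by library, against the distance from the gene start in kb, with the direction of transcription to the right. The grey bar is the gene, the dotted line its start, and peaks are drawn whole where they pass the edge of the locus. Notch4 has no peak over the first 21.0 kb of the gene, and the cluster 23 to 33 kb into Notch1 is 3 peaks in WT and 1 in cKO.

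The start of the gene was looked at apart from the rest of the locus, using the most upstream start of the RefSeq promoter table (GRCm38.p6). The start base itself was under a peak in 5 of the 9 genes in each WT library, and in 6 and 7 of them in cKO replicates 1 and 2. Of 17274 coding genes with a start in the table, 31.0% and 26.2% had this in WT and 36.9% and 41.1% in cKO. Notch1, Notch3, Dll3 and Dll4 were covered at the start in all 4 libraries. Notch4 and Jag2 were covered there in none. Dll1 changed with genotype, but by a small shift of an edge: the upstream block stopped 0.011 and 0.001 kb before the start in WT and 0.268 and 0.069 kb after it in cKO. Notch2 and Jag1 differed between libraries of the same genotype. The Jag1 start was uncovered in WT replicate 2 alone. The Notch2 block began 1.01 and 0.986 kb downstream of the start in replicate 1 of WT and cKO, and upstream of it in replicate 2 of both.

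The promoter sequences of 4 of these genes are shown because they carry this contrast: Notch1 is fully covered, Dll1 lies at the edge of a block, and Notch4 and Jag2 are bare. Each runs from 250 bases upstream to 50 bases downstream of the start, 5′ to 3′ on the strand of the gene, from RefSeq on GRCm38.p6. Capitals mark matches to CANNTG, the E-box bound by proneural bHLH factors. Notch1 (chr2:26503773-26504072, minus strand) was covered over all 300 bases in every library. Dll1 at its first start (chr17:15376883-15377182, minus strand) was covered over 240 and 250 bases in WT, against 300 and 300 in cKO. Dll1 at its second start, 1.11 kb downstream (chr17:15375774-15376073, minus strand), lay in the gap between the blocks, with 0 bases covered in each library. Notch4 (chr17:34564045-34564344, plus strand) and Jag2 (chr12:112929446-112929745, minus strand) also had 0 bases covered in each library.
Notch1: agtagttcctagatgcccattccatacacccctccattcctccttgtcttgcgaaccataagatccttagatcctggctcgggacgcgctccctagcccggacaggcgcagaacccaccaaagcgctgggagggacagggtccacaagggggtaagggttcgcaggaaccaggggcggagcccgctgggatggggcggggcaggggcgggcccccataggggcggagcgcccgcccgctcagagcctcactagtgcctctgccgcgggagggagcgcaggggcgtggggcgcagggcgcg
Dll1 first start: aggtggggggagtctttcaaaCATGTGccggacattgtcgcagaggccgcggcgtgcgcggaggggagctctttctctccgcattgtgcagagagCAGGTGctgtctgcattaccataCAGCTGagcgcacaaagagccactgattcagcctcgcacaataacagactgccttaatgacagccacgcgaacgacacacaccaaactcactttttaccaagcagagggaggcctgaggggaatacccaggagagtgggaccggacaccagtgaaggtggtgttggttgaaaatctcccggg
Dll1 second start: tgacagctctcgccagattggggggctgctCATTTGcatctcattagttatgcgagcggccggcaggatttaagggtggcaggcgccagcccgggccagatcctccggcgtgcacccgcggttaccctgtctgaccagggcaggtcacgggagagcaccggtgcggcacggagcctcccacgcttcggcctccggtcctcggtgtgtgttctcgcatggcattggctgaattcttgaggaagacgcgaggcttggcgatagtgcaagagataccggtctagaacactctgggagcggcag
Notch4: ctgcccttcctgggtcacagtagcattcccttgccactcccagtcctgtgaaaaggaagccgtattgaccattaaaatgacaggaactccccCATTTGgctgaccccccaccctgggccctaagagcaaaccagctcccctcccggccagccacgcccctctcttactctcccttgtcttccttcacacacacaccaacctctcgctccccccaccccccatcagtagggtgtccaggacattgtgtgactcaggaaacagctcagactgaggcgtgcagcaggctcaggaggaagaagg
Jag2: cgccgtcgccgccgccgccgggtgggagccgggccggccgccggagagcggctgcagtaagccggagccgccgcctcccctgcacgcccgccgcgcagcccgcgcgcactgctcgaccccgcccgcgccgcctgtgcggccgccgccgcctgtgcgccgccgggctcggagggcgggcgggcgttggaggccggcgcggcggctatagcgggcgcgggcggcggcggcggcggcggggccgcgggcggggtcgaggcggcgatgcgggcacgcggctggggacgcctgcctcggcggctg

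The pair of bare promoters differed in base composition. Jag2 held 63 CpG dinucleotides in the 300 bases, more than 99.97% of coding promoters, and Notch4 held 5, more than 28.4% of them, where the median was 14. Notch1 held 23, and Dll1 held 15 at its first start and 24 at its second. An E-box (CANNTG, a motif that is its own reverse complement) was present in 4 of the 9 most upstream promoters, with 3 matches in Dll1, 2 in Dll3 and 1 each in Notch4 and Jag1. Of all 17274 coding promoters, 68.8% held at least 1. The core TGGGAA, the site of RBPJ, was searched on both strands and was in 0 of the 9, compared with 24.1% of coding promoters. These matches describe the letters of the window only.

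**Figure D3:**
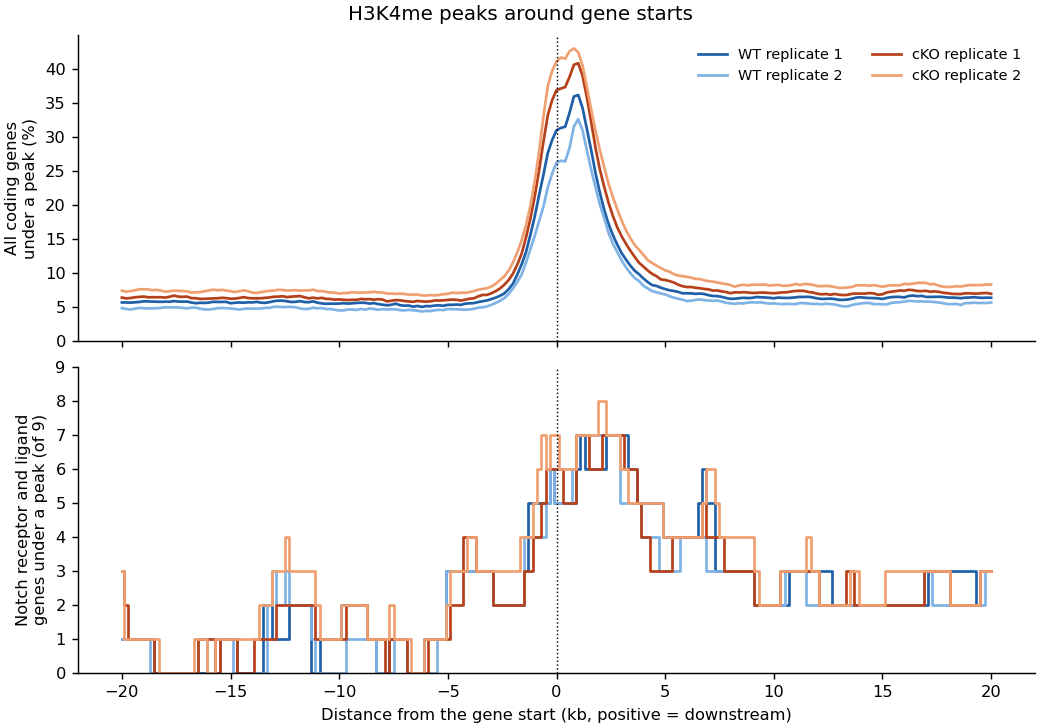
Share of all coding genes (upper panel, percent) and number of the 9 Notch receptor and ligand genes (lower panel) under a peak at each distance from the gene start, in steps of 0.2 kb over 20 kb on either side, 1 line per library. At 1 kb downstream 32.6% to 42.4% of all genes are covered, and 6 or 7 of the 9.

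The comparison between WT and cKO asks where the mark differs when Prdm16 is removed. No member differed between the genotypes by the test across all loci. Covered bases were compared on the scale log2(bases + 500) after each library was centred on its median locus, with limma and Benjamini-Hochberg adjustment over the 14941 loci with at least 1000 covered bases on average, a filter that all 9 members passed. This called 0 members and 0 loci in all (0% of loci in each direction, with 0.407 as the lowest adjusted p). At an unadjusted p under 0.05, Notch2 and Dll4 were lower in cKO and no member was higher, where 4.44% of loci were lower and 5.56% higher. Without centring, the median locus had a difference of 0.35 in favour of cKO, so centred differences are relative to that shift.

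Dll4 was the member with the lowest difference, −0.50 ± 0.16 (SE; limma adjusted p = 0.468). Its covered bases were 9.95 and 8.93 kb in WT, against 8.86 and 8.47 kb in cKO. Both cKO values were below both WT values before any scaling, although WT replicate 2 and cKO replicate 1 were close. This was seen in 1 of the 9 members and in 1.22% of all loci tested. Its uncentred difference was −0.12 ± 0.16 (SE), and it stayed below 0 under all 15 alternatives. Within 5 kb of its start the covered bases were 8.61 and 8.92 kb in WT, against 8.22 and 7.84 kb in cKO, again without overlap, which 2.34% of tested starts showed. The difference at the start was −0.47 ± 0.13 (SE; limma adjusted p = 0.556).

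Notch2 had a difference of −0.37 ± 0.091 (SE; limma adjusted p = 0.411), with nearly equal bases in the genotypes, 61.0 and 60.7 kb in WT, against 59.1 and 63.97 kb in cKO. Its uncentred value was 0.014 ± 0.11, so it lay below 0 only after centring. Notch1 had more bases covered in both cKO libraries and a centred difference of −0.21 ± 0.11 (adjusted p = 0.554). Notch3 stood at −0.21 ± 0.15, Dll3 at −0.16 ± 0.15, Dll1 at −0.072 ± 0.13 and Jag1 at −0.040 ± 0.19, with limma adjusted p between 0.635 and 0.946. The uncentred differences of Notch1, Notch3, Dll1, Dll3 and Jag1 were positive, between 0.18 and 0.34.

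Notch4 and Jag2 were the members above the median locus. Jag2 stood at 0.49 ± 0.29 (SE; limma adjusted p = 0.574) and Notch4 at 0.42 ± 0.20 (adjusted p = 0.517). Both had more bases covered in each cKO library than in either WT library, as did Notch1, Notch3 and Dll1, that is 5 of 9 members beside 59.8% of all loci. Part of the Jag2 value lay on its neighbour: with no flank the difference of Jag2 was −0.16, and once each list was trimmed to the same covered length it was −0.50. In Notch4 the bases on neighbours, given above, are included. The Notch4 difference was 0.56 with no flank. Vessel markers, whose cells express Notch4, also had a positive median difference, 0.27 over the 10 tested of 14, with values from −0.25 to 1.04. Of these 10, 6 were above 0 and 4 below, where 55% of all loci tested were below 0. The summed covered share of all 14 vessel markers, including those not tested, was 96.7 and 73.6 percentage points in WT, against 125 and 145 in cKO. The sum over all coding loci was higher in cKO too, with 186811 and 162119 percentage points in WT, against 210454 and 238982 in cKO. The other members described earlier as genes of vessels lay below 0, Dll4 at −0.50, Notch3 at −0.21 and Jag1 at −0.040. The part of vessel cells in the Notch4 value and in these values was not tested.

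Among all 9 members, 7 differences were below 0, beside 55% of loci, and the median was −0.16, beside −0.038 for all loci tested. The centred values of both cKO libraries were below those of both WT libraries in 6 members, beside 27.2% of loci, and above them in 2, beside 17.3%. These 6 were Notch1, Notch2, Notch3, Dll1, Dll3 and Dll4. Of the marker lists, all 10 progenitor markers and all 8 neuron markers were below 0 after centring, with medians of −0.28 and −0.21 and 0 calls. Without centring 1 of the 10 and 0 of the 8 were below 0, with medians of 0.11 and 0.17, beside 0.35 for all loci tested. The progenitor and neuron lists had a median of 59.0% and 50.3% of the locus covered. The vessel, microglia and erythroid lists had 6.18%, 4.14% and 0.829%. Their median differences were 0.27, −0.079 and −0.069, over 10, 3 and 1 loci tested. A locus already mostly under peaks has less room to gain covered bases, and the shares of all loci were not matched for this. The parts of covered share, and of progenitors and neurons, in the member values were not tested. With no centring the median over the members was 0.23, also beside 0.35 for all loci tested. The members were chosen with earlier results of these data known, and these counts are a description.

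**Figure D4:**
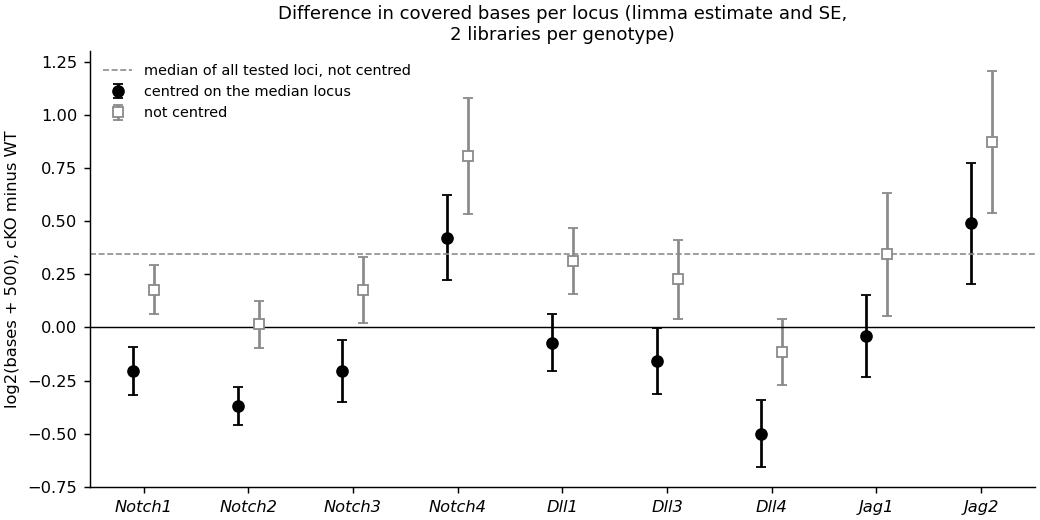
Difference in covered bases per locus, cKO minus WT, on the scale log2(bases + 500), with the limma SE as error bars (2 libraries per genotype). Filled points are centred on the median locus of each library, open squares are not, and the dashed line is the median of all tested loci without centring (0.35). Dll4 alone of the 9 genes lies below 0 on both scales.

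At the gene start, 8 members passed the same filter, since Notch4 had no peak within 5 kb of its start. None passed the test (limma over 9642 starts, 0% called in either direction; adjusted p between 0.556 and 0.981 for the 8). Notch3 and Dll4 had an unadjusted p under 0.05, both lower in cKO, as did 3.87% of starts. Of the 8, 6 differences were below 0, beside 56.4% of starts, and the centred values of both cKO libraries were below those of both WT libraries in 5, beside 30.5%. Notch3 had 5.09 and 5.16 kb covered in WT, against 4.77 and 5.14 kb in cKO, and a difference of −0.39 ± 0.14 (SE; adjusted p = 0.556). The highest cKO value lay between the WT values, and with stricter peaks the difference turned to 1.11. Dll1 had 7.72 and 7.63 kb in WT, against 8.09 and 8.17 kb in cKO, and Dll3 had 4.80 and 4.26 kb and 5.05 and 5.26 kb. Both thus had more bases near the start in each cKO library, as did 49.1% of starts. Jag1 ranged from 2.204 to 6.39 kb within WT alone, and its difference of 0.028 ± 0.40 carried no direction.

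Most of the mark was shared. The 9 loci held 197 kb under a peak in at least 1 library and 134 kb, or 68.0% of it, in all 4. Of the bases common to the WT libraries, 96.4% were common to the cKO libraries too. The lowest share was that of Dll4, 83.7%, and Notch4, Dll1, Dll3 and Jag2 reached 100%. For Jag2 this 100% rests on only 0.284 kb common to the WT libraries, and for Notch4 on 4.28 kb. Of the bases under a peak in at least 1 library, 5.91% were in all 4 for Jag2, the lowest of the 9, and 37.0% for Notch4. Dll4 had 70.2%. In the other direction, 85.2% of the bases common to the cKO libraries were common to the WT libraries. The cKO lists covered more of the genome, and these shares are not given for other loci, so they describe the 9 loci only. Bases covered in both cKO libraries and in no WT library made up 4.32% of the covered bases in the 9 loci, compared with 7.04% over the genome, and the opposite share was 0.496%, compared with 0.759%. Of the cKO bases, 2.90 kb of 8.50 kb were in Notch1, mostly in the gaps between WT peaks 23 to 33 kb from the start. Within Notch4 they came to 1.52 kb and within Dll1 to 1.13 kb.

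Separate regions found in 1 genotype were counted next, within the 9 loci only. With a minimum of 200 bp, 2 intervals were covered in both cKO libraries and touched by no WT peak, and 0 were found in WT alone. The first was 314 bp long and lay 97.5 kb downstream of the Notch2 start, inside the gene (chromosome 3, 98110997 to 98111310). The deposited −log10 q of its peaks was 3.81 and 1.90 in cKO replicates 1 and 2. The second was 365 bp long and lay upstream of Dll3, inside Timm50 (chromosome 7, 28305585 to 28305949), with 2.53 and 2.05. Both were weak peaks, with fold enrichments of 2.96 to 3.91. With a minimum of 1 bp there were 3 and 0 such intervals, and with 500 bp there were 0 and 0. Leaving out WT replicate 1 gave 6 cKO-only intervals. After trimming the lists to the same covered length there were 0 cKO-only and 2 WT-only intervals, so the direction of this count changed with the length of the lists.

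The other genes of the pathway were compared in the same fit. Of 40 such genes, all tested, 0 were called in either direction, 25 differences were below 0 and 15 above, and the median was −0.20, beside 55% below 0 and a median of −0.038 for all loci tested. Of the 40, 6 had an unadjusted p under 0.05, beside 5.56% of loci higher and 4.44% lower. Without centring 6 were below 0, and the median was 0.18, beside 0.35 for all loci tested. The 7 target genes of the pathway, Hes1, Hes5, Hes6, Hey1, Hey2, Heyl and Nrarp, were all below 0 after centring, with a median of −0.34, and 2 of the 7 were below 0 without it. Hes1, the HES repressor that maintains radial glia, had 14.6 and 14.2 kb covered in WT, against 12.9 and 14.5 kb in cKO. Hes5, its close relative, had 13.6 and 13.5 kb in WT, against 14.1 and 13.8 kb in cKO. Nrarp, a feedback inhibitor of Notch, had 13.0 and 10.8 kb in WT, against 11.3 and 13.2 kb in cKO. These 3 are named because they were the targets with an unadjusted limma p under 0.05, all lower in cKO after centring. The genotypes overlapped in Hes1 and Nrarp and not in Hes5, whose covered bases were higher in cKO. Covered bases were higher in both cKO libraries in 3 of the 7 targets and 22 of the 40 genes, beside 59.8% of all loci tested. Hes1 and Hes5 are also on the list of progenitor markers.

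The 8 genes of receptor cleavage, which encode the ADAM proteases and the subunits of gamma-secretase, had a positive median of 0.26, with 6 above 0. The other 2 genes of cleavage were below 0, beside 55% of all loci tested. The 8 were thinly covered, with a median of 5.69% of the locus under peaks compared with 27.6% for the targets. Aph1b, a subunit of gamma-secretase, had the highest difference of the pathway, 0.92 ± 0.60 (SE; limma adjusted p = 0.603). Aph1b had 1.57 and 0 kb in WT, against 1.87 and 2.16 kb in cKO, so its value rests on the empty locus in WT replicate 2. Poglut1, which adds glucose to the receptors, had 0.34 ± 0.21 (limma adjusted p = 0.586). The lowest differences were those of Hey2, a target (−0.56 ± 0.27, adjusted p = 0.519), Dlk2, a non-canonical ligand (−0.47 ± 0.30, adjusted p = 0.597), and Adam10, the protease that makes the first cut in the receptor after ligand binding (−0.46 ± 0.38, adjusted p = 0.669). In each of these 3 the WT and cKO values overlapped. The groups for the nuclear complex (median −0.091), receptor sugar modification (−0.22), ligand endocytosis (−0.11), receptor trafficking and turnover (−0.23) and non-canonical ligands (−0.18) held 0 calls as well.

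**Figure D5:**
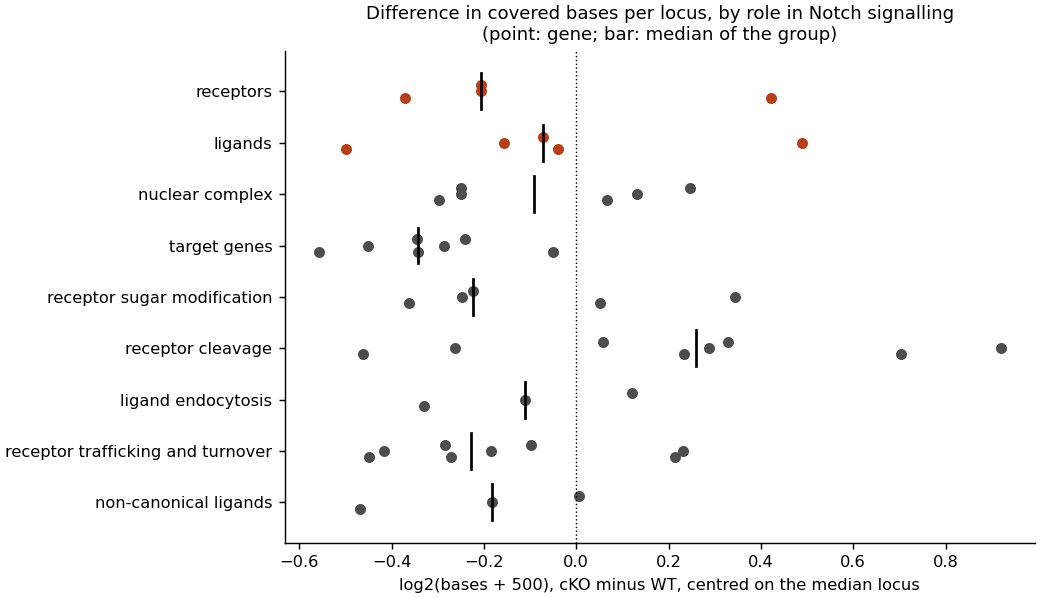
Difference in covered bases per locus, cKO minus WT, on the scale log2(bases + 500) after centring, for the 4 receptors, the 5 ligands and 40 other genes of the pathway by role. Each point is a gene and each bar the median of its group. The 7 target genes lie below 0 (median −0.34), and 6 of the 8 genes of receptor cleavage lie above 0 (median 0.26). Of all loci tested, 55% lie below 0.

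For each member, the coding locus with the most similar covered bases was looked up among loci that share no base with it, by Euclidean distance of the centred log2 values over the 4 libraries. These were Cttnbp2 for Notch1 (distance 0.088), Sema5b for Notch2 (0.087), Mogs for Notch3 (0.042), Gpt2 for Notch4 (0.13) and Igsf5 for Dll1 (0.061). They were Sfswap for Dll3 (0.043), Gm40514 for Dll4 (0.067), Slc12a8 for Jag1 (0.15) and Eps8l1 for Jag2 (0.14). Such matches are drawn from 14941 loci and describe equal amounts of coverage. For Dll4, the similar locus Gm40514 had 9.71 and 8.81 kb in WT, against 9.20 and 8.58 kb in cKO.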

How the data were processed

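H3K4me ChIP-seq was analysed for 4 libraries, 2 WT and 2 cKO. Per the labels' protocols, native chromatin was digested with micrococcal nuclease before precipitation. The submitters' processing notes name the mm10 build, MACS2 2.1.1, Bowtie2 2.2.8, cutadapt and FastQC. How peaks were called, how reads were filtered and whether inputs served as control is not given in the sources used here. One broad peak list was deposited for every library, so replicates were not pooled. Each deposited line holds a score, a fold enrichment (a ratio over the caller's background) and, as −log10, a p-value and a q-value, which are the authors' values and served for description, ranking and filtering of peaks. Folds and median q of different lists are set side by side as a description and were not tested. The lists hold no counts, so no counting interval was computed, and deeper or better precipitated libraries give more and wider peaks.

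Peaks on chromosomes 1 to 19 and X were kept, which left out 2. Gene spans and promoter sequences came from RefSeq tables of GRCm38.p6, which has the same chromosome coordinates as mm10. Covered bases per locus were converted to log2(bases + 500) and tested with limma 3.58.1 under R 4.3.3 (no block, moderated variances with a trend, threshold 0.05), and pandas 2.3.3 and numpy 2.4.6 under Python 3.11.15 served for the interval sums. Starts were tested in a window of 5 kb on either side. The interval code and the fit were tested on simulated data. By rule, the named genes were the 9 members, the 3 highest and 3 lowest differences of the pathway list and 1 similar locus per member. One gene that this rule names is not reported here. Hes1, Hes5, Nrarp and the markers with no peak were named in addition, after their values were seen. The members, lists and tests were chosen with earlier results of these data known. The alternatives tried covered peak strength, list length, flank, window, pseudocount, filter, scaling, replicate block and single libraries. Fits at the start without centring and with the block, and the alternatives for covered length, were added after seeing the data.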

Additional observations from a re-analysis of the deposited data

How the results depend on the processing

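Over all alternatives, 204 differences of the members were computed, 30 changed sign and 0 were called. Dll4 stayed below 0 under each (locus −0.78 to −0.12, start −0.72 to −0.12), and Notch4 above 0 (0.19 to 0.81). Per locus, no centring gave Notch1 0.18, Notch2 0.014, Notch3 0.18, Dll1 0.31, Dll3 0.23 and Jag1 0.34; lists of equal covered length gave Notch1 0.14, Dll1 0.23, Jag1 0.21 and Jag2 −0.50. No flank gave Dll1 0.12, Jag1 0.019 and Jag2 −0.16, cyclic loess Dll1 0.0039 and Jag1 0.037, a pseudocount of 2000 Jag1 0.018, and stricter peaks (−log10 q of at least 3) Notch3 0.19. At the start, no centring gave Notch1 0.092, Notch2 0.027, Dll1 0.078 and Dll3 0.17, stricter peaks Notch3 1.11 and Jag1 −0.22, and a window of 2 kb Jag1 −0.079. Leaving out 1 library moved Jag1 between −0.28 and 0.20 per locus (0.20 without WT replicate 1, 0.15 without cKO replicate 1) and between −0.57 and 0.63 at the start (−0.57 without WT replicate 2, −0.087 without cKO replicate 2). It moved Jag2 at the start between −0.56 and 0.71 (−0.56 without WT replicate 1, −0.46 without cKO replicate 2). Without changing sign, it moved Notch1 per locus between −0.33 (without WT replicate 1) and −0.084 (without WT replicate 2), Notch3 between −0.29 and −0.13, Dll1 between −0.12 and −0.023, Jag2 between 0.28 and 0.70, Notch4 between 0.24 and 0.61, and at the start Notch1 between −0.35 and −0.17 and Notch2 between −0.61 and −0.031. The count of loci called higher in cKO ranged from 0 to 119 and of those lower from 0 to 5, with the 119 and 5 without WT replicate 1, and 0 members among them. Regions in cKO alone numbered 2 to 6 and in WT alone 0 to 2 with 1 library left out. They numbered 0 in cKO with at least 500 bp, 1 with stricter peaks, 1 and 1 with equal numbers of peaks, and 0 and 2 with equal covered length. The cause of these changes was not tested. With the replicate number as a block, 0 loci and 0 starts were called. The deviations of same-numbered libraries were weakly correlated (−0.096), which cannot show whether those libraries were prepared together. The fit with no filter left out loci with no peak base in any library. Depth is unknown, so weak peaks missed in 1 library cannot be told apart from absent ones.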
